A study of Mus musculus with 5 samples.

Results

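The genes of the TGF-beta superfamily ligands and of 4 secreted antagonists were read against lists of H3K27me3 peaks from mouse embryonic fibroblasts (MEFs). The members were a fixed list of 36 symbols, 32 ligands and 4 antagonists, and each symbol matched 1 of the 22350 protein-coding genes of the GENCODE vM1 annotation (mm9). A member counted as marked in a list when its start site, the 5′ end of the gene, lay inside a peak, and the share of its gene body under peaks was also computed. Lefty1, Lefty2 and Inha were kept with the ligands by protein fold, although they oppose signalling.

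The study profiled H3K27me3 by chromatin immunoprecipitation and sequencing in isogenic MEF lines, to compare how 2 inhibitors of the methyltransferase PRC2 change where the mark lies. The parental cells came from 1 mid-gestation mouse embryo whose Eed gene, which encodes a PRC2 subunit, carried loxP sites, and all lines used here share this floxed allele and a constitutive lentiviral promoter. The 3 lines were transduced with H3.3 K27R (a histone with arginine in place of lysine 27, the reference here), H3.3 K27M (the methionine mutant of diffuse midline glioma) or human EZHIP (the PRC2-binding protein of PFA ependymoma). The series held 5 libraries, 1 per group, and the lists of the parental Control cells and of the EEDnull clone, made with Cre, were not analysed here. There were 12845 K27R peaks, 3736 K27M peaks and 4992 EZHIP peaks. They gave positions without heights or read counts, so depth was unknown, no difference could be set against replicate spread, and all comparisons describe these 3 libraries with no test.

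TGF-beta superfamily ligands are secreted dimers that bind pairs of type I and type II serine/threonine kinase receptors, which phosphorylate Smad proteins. TGF-beta isoforms, activins and Nodal act mainly through one set of Smads and bone morphogenetic proteins (BMPs) through another, while noggin, chordin, gremlin and follistatin bind ligands outside the cell and keep them from their receptors. PRC2 places H3K27me3 over silent developmental genes, often from CpG islands (stretches rich in CG dinucleotides) outwards into broad domains. In fibroblasts TGF-beta itself is best known for driving production of extracellular matrix. The peaks measure the mark and not RNA, and no expression data were used here.

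Start sites of 21 of the 36 members lay in K27R peaks (58.3%, 95% exact Clopper-Pearson interval 40.8 to 74.5), beside 30.1% of all protein-coding genes. In the K27M list 9 members kept a peak over the start site (25.0%, interval 12.1 to 42.2, against 9.02% of all genes). The EZHIP list had 8 (22.2%, interval 10.1 to 39.2, against 7.73%), and 7 members were in both inhibitor lists (19.4%, interval 8.19 to 36.02, against 6.60%). In all 4 counts the share of all genes lay below the members' interval. Among all genes with a CpG island within 500 bp of the start, 25.0% were in K27R peaks, 13.0% in K27M, 11.0% in EZHIP and 9.81% in both. The last 3 values lay inside the members' intervals, but those intervals also count members without an island, so the sets are unlike. These intervals cover counting error only and treat genes as independent, which Gdf2 with Gdf10, and Inhbc with Inhbe, were not, because each pair lay under 1 and the same K27R peak. A CpG island lay within 500 bp of the start site in 21 of the 36 members, against 53.5% of all genes. Of these 21 members, 13 were in K27R peaks, with no interval computed. In K27M there were 9 (42.9%, interval 21.8 to 66.0), and in EZHIP and in both 7 (33.3%, interval 14.6 to 57.0). The island-gene shares of 13.0%, 11.0% and 9.81% lay below these intervals.

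Most members that were marked in K27R cells had no peak at the start site in the inhibitor lists. Of the 21, 12 were in neither inhibitor list (57.1%, interval 34.0 to 78.2), where 66.5% of all genes marked in K27R were in neither. The K27M list kept 9 of 21 (42.9%, interval 21.8 to 66.0, against 29.9%) and the EZHIP list 7 of 21 (33.3%, interval 14.6 to 57.0, against 25.6%). Here the intervals held the values of all genes, so that retention of a peak by the members was not separable from that of other marked genes at this number. Ligands and antagonists are given apart. K27R peaks covered 19 of 32 ligand start sites (59.4%, interval 40.6 to 76.3) and 2 of 4 antagonist start sites (50%, interval 6.76 to 93.2). The K27M list held 8 ligands and 1 antagonist, and the EZHIP list 7 ligands and 1 antagonist. With 4 antagonists the interval was too wide to set them apart from the ligands.

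**Figure D1:**
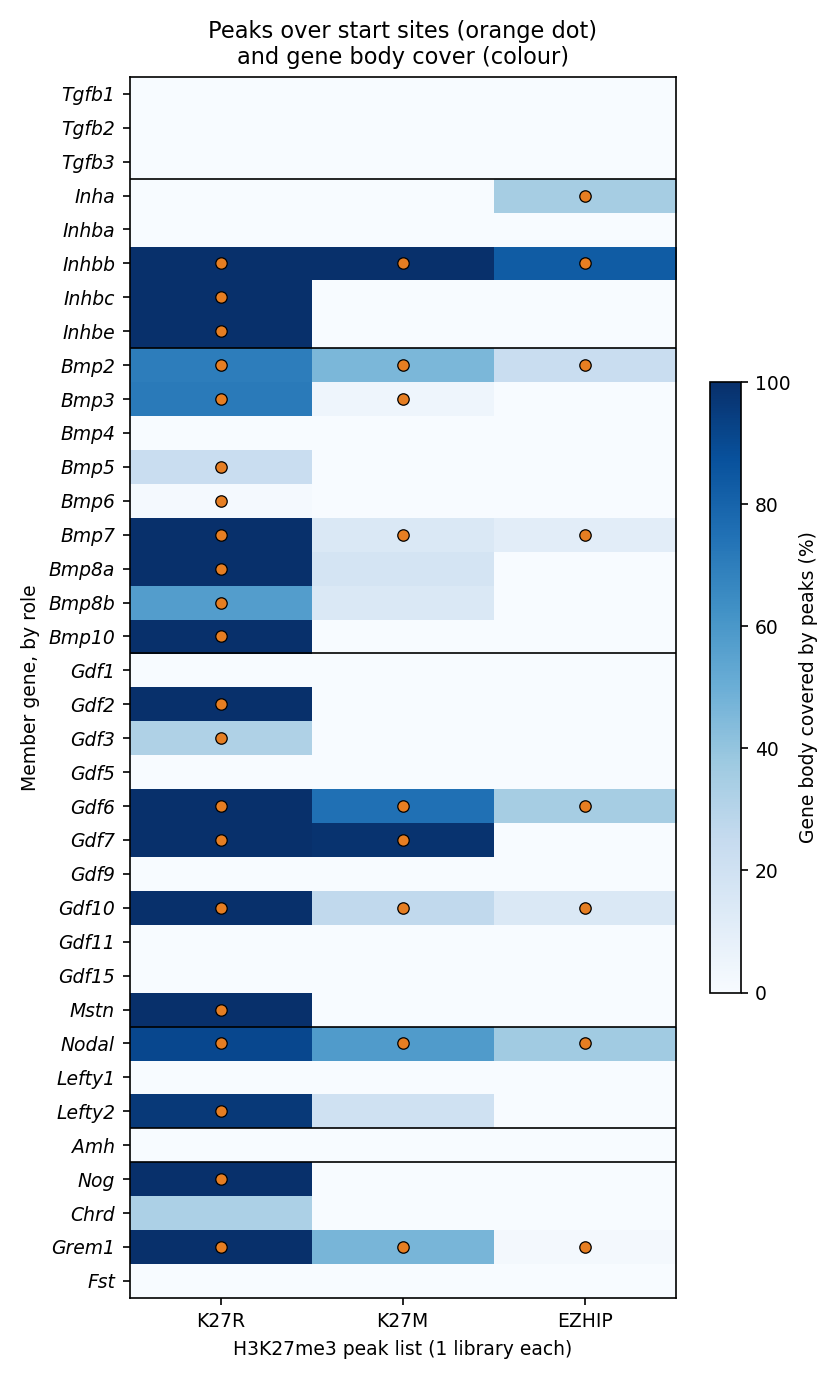
Gene body cover (colour, percent of the annotated gene under peaks) and start sites inside a peak (orange dots) for the 36 members, in rows grouped by role, in the K27R, K27M and EZHIP lists with 1 library each. Dots stand at 21, 9 and 8 members, none of them a TGF-beta isoform, and Inha has its dot in the EZHIP column alone.

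The 7 members marked in all 3 lists were Inhbb, Bmp2, Bmp7, Gdf6, Gdf10, Nodal and the antagonist Grem1. Bmp3 and Gdf7 were marked in K27R and K27M cells but not in EZHIP cells. The 12 members marked in K27R alone were Inhbc, Inhbe, Bmp5, Bmp6, Bmp8a, Bmp8b, Bmp10, Gdf2, Gdf3, Mstn, Lefty2 and Nog. Inha had a peak in the EZHIP list only. The other 14 were in no list at the start site: Tgfb1, Tgfb2, Tgfb3, Inhba, Bmp4, Gdf1, Gdf5, Gdf9, Gdf11, Gdf15, Lefty1, Amh, Chrd and Fst.

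The promoters of 4 members are shown as examples of start sites in these states. Each is 300 bases of the NCBIM37 (mm9) genome, from 250 bases before to 50 after the GENCODE start, printed 5′ to 3′ on the gene's strand with CG dinucleotides in capitals. Bmp7 and Inhbb are the members in all lists whose narrower residual peak was widest. Bmp10 is the member with the widest K27R peak among those with none over the start site in the inhibitor lists, and Inha was chosen after its values were seen.
Bmp7: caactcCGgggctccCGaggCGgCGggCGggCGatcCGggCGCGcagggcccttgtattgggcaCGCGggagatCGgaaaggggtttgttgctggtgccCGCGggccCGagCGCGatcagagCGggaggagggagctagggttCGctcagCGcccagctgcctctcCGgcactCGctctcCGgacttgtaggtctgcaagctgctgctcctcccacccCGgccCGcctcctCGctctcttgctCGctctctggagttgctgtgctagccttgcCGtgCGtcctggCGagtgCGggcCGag
Inhbb: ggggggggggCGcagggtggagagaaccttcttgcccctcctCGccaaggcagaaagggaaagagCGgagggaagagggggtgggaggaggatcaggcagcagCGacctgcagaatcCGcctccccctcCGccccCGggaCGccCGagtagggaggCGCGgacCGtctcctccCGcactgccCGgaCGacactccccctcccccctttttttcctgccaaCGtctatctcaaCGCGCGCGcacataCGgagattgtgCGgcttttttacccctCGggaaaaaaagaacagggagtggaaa
Bmp10: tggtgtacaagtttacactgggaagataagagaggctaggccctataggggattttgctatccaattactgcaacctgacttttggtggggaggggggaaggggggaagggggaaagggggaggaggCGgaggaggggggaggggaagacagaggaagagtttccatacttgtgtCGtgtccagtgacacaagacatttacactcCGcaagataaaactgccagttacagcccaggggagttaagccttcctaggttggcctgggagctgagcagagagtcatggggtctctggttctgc
Inha: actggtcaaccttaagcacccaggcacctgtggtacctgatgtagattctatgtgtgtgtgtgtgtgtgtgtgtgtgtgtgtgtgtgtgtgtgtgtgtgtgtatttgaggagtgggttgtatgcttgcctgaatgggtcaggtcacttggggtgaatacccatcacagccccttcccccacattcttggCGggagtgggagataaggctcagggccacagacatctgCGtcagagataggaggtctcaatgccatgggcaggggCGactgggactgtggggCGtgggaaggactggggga
The Bmp7 promoter (chr2:172765773-172766072, minus strand) holds 32 CG and the Inhbb promoter (chr1:121318776-121319075, minus strand) 23. The Bmp10 promoter (chr6:87378746-87379045, plus strand) holds 3 CG, and as many or more are found in 80.6% of all protein-coding promoters. The Inha promoter (chr1:75503402-75503701, plus strand) has 4. Bmp10 does not stand for all 12 members in K27R peaks alone, whose CG counts ran from 3 to 33 and of which 4 had an island at the start site. The dinucleotide itself is common, since 95.1% of these windows hold at least 1, and the median is 11.

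The TGF-beta isoforms, the founding ligands of the family, were unmarked. Tgfb1 lay 11.8 kb from the nearest K27R peak, Tgfb2 54.5 kb and Tgfb3 85.2 kb, and no peak of any list touched their gene bodies. All 3 have a CpG island within 500 bp of the start site. With 3 genes the interval of this 0% reached 70.8%.

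Of the 5 activin and inhibin subunit genes, 3 were marked in K27R, 1 in K27M and 2 in EZHIP. The intervals (14.7 to 94.7%, 0.505 to 71.6% and 5.27 to 85.3%) held the shares of all genes, 30.1%, 9.02% and 7.73%. Inhbb, which encodes the beta B subunit of activin B and inhibin B, kept a peak in each list. Its start site lay under a K27R peak of 29.0 kb (chr1:121307201-121336200), a K27M peak of 12.2 kb (chr1:121311401-121323600) and an EZHIP peak of 8.6 kb (chr1:121313201-121321800). The whole gene body was covered in K27R and K27M, both exons included, and 82.9% of it in EZHIP. Inhba, which encodes the beta A subunit of activin A, was the member farthest from any K27R peak, at 858 kb. Inhbc and Inhbe, subunit genes known mainly from liver, start 18.8 kb apart under a K27R peak of 64.4 kb that also covered the start sites of Gli1, Arhgap9 and Mars. That region kept a K27M peak of 5.6 kb and an EZHIP peak of 4.2 kb over a CpG island, 21.8 kb and 22.8 kb from the Inhbe start, and none over either subunit gene.

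Inha, which encodes the alpha subunit that turns activins into inhibins, was the opposite case. A 3.2 kb EZHIP peak (chr1:75501601-75504800) ran from 2.05 kb upstream to 1.15 kb downstream of its start and covered 34.9% of the gene, while the nearest K27R peak lay 23.1 kb away and the nearest K27M peak 49.5 kb. The same EZHIP peak covered the start site of the neighbour Obsl1 and a CpG island that was not within 500 bp of the Inha start. Of all 1728 gene starts in EZHIP peaks, 4 lay outside K27R peaks (0.231%). Inha and Obsl1, under this same peak, were 2 of them, so the 4 are not separate cases. In the whole list 8 EZHIP peaks overlapped no K27R peak. Whether this peak would recur in another library was not tested.

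Of the 9 BMP start sites, 8 were marked in K27R cells, 3 in K27M and 2 in EZHIP. The one unmarked gene was Bmp4, 265 kb from the nearest K27R peak. Bmp7, known for its part in kidney and eye development, had the widest domain of all members. Its K27R peak of 314.2 kb (chr2:172511001-172825200) covered the whole gene and the start site of Spo11. The peaks left over its start site were 15.6 kb in K27M (chr2:172755601-172771200) and 10.8 kb in EZHIP (chr2:172758201-172769000), each of them over exon 1 of 7 and the CpG island there. The domain also held 4 other K27M peaks and 6 other EZHIP peaks. All 4 of those K27M peaks, and 4 of those EZHIP peaks, lay more than 100 kb downstream of the start, beyond the 3′ end of the gene, and the other EZHIP peaks of 2.8 kb each lay 51.4 kb and 55.6 kb upstream. In all, 20.9% of the Bmp7 domain stayed under K27M peaks and 15.1% under EZHIP peaks.

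Bmp2, which drives bone and heart development, had the narrowest K27R peak of the members in all lists, 15.6 kb (chr2:133369801-133385400). Its K27M peak of 6.8 kb (chr2:133376001-133382800) and its EZHIP peak of 4.0 kb (chr2:133376401-133380400) began within 2 kb upstream of the start and reached 4.91 kb and 2.51 kb into the gene. Bmp3, a BMP that opposes osteogenic signalling, kept 1.6 kb in K27M (chr5:99283001-99284600) out of a K27R peak of 26.4 kb, and the nearest EZHIP peak was 596 kb away. Bmp8a lay just outside the rule for K27M, since a K27M peak of 1.6 kb began 295 bp downstream of its start, inside the gene. Its K27R region of 210.8 kb, with 6 start sites, kept 30.4% under K27M peaks and 24.2% under EZHIP peaks, most of it in a stretch over Hpcal4 and Nt5c1a that lay 130 kb or more from the Bmp8a start site. Bmp8b had its own K27R peak of 57.4 kb and a K27M peak of 3.8 kb in the gene, 9.39 kb from the start and over the starts of Oxct2b and Gm17244. Bmp10, a cardiac BMP, lay in a K27R domain of 281.2 kb, whose closest residual peaks were 16.2 kb downstream in K27M and 18.4 kb downstream in EZHIP. Bmp5 and Bmp6 had K27R peaks of 66.8 kb and 17.8 kb in which neither inhibitor list left a peak. The K27R peak of Bmp6 reached 2.21 kb into a gene of 155 kb and so covered 1.42% of it.

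Of the 11 growth differentiation factors, counted with Mstn, 6 were marked in K27R, 3 in K27M and 2 in EZHIP. The intervals (23.4 to 83.3%, 6.02 to 61.0% and 2.28 to 51.8%) held the shares of all genes, 30.1%, 9.02% and 7.73%. Gdf6, a factor in joint and eye formation, had a K27R domain of 133.8 kb (chr4:9710801-9844600) and kept 15.4 kb in K27M (chr4:9769601-9785000) and 6.6 kb in EZHIP (chr4:9771201-9777800). The EZHIP peak began 318 bp upstream of the start, so that this start lay near the edge of the peak. Gdf10 and Gdf2, which encodes BMP9, start 17.5 kb apart under a K27R peak of 200.4 kb (chr14:34692001-34892400), and their states differed. Gdf10 kept 8.4 kb in K27M (chr14:34731801-34740200) and 4.0 kb in EZHIP (chr14:34734601-34738600). Gdf2 kept no peak, and the nearest ones were those over Gdf10, at 14.0 kb and 15.6 kb. The Gdf10 start has an island and 42 CG, and the Gdf2 start has no island and 6 CG. Gdf7 kept a K27M peak of 4.0 kb (chr12:8304801-8308800) that covered 98.5% of the short gene but reached 40 bp upstream of its start, and the nearest EZHIP peak was 2847 kb away. Gdf3 had the narrowest K27R peak of any member, 6.8 kb, and Mstn, which encodes the muscle growth inhibitor myostatin, one of 76.2 kb, and in both domains no residual peak was found. Gdf1, Gdf5, Gdf9, Gdf11 and Gdf15 lay 37.5 kb to 93.6 kb from the nearest K27R peak.

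Nodal, the ligand that patterns the early embryo, kept 6.2 kb in K27M (chr10:60878801-60885000) and 3.8 kb in EZHIP (chr10:60879601-60883400) of a K27R peak of 50.8 kb (chr10:60836601-60887400). These residual peaks covered 58.1% and 36.4% of the gene. Nodal is 1 of the 2 members with a residual K27M peak whose 300 bp promoter window held few CG, 5, as did that of Bmp3, although an island lay within 500 bp of each start. The neighbours Lefty1 and Lefty2, feedback inhibitors of Nodal, start 41.9 kb apart and differed. Lefty2 lay in a K27R peak of 23.2 kb with a K27M peak of 1.2 kb that began 362 bp inside the gene, just outside the rule. Lefty1 lay 36.2 kb from the nearest K27R peak. Amh, the anti-Müllerian hormone gene, was 23.2 kb from one.

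Among the antagonists, Grem1 was the one marked in all lists, with a K27R peak of 39.6 kb (chr2:113564201-113603800), a K27M peak of 10.0 kb (chr2:113593001-113603000) and an EZHIP peak of 1.4 kb (chr2:113598601-113600000). The EZHIP peak ended 202 bp past the start and covered 1.63% of the gene body, against 46.5% in K27M. Nog lay in a K27R domain of 262.2 kb (chr11:89148601-89410800), which reached 247 kb upstream of the gene. No K27M peak was found in that domain, the nearest being 332 kb from the start, and its single EZHIP peak was 1.4 kb wide and 2.93 kb upstream. Chrd was free at the start site, but a K27R peak that began 6.20 kb downstream covered 33.0% of its body, and no inhibitor peak touched it. Fst lay 15.4 kb from the nearest K27R peak and 758 kb from the nearest K27M peak.

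**Figure D2:**
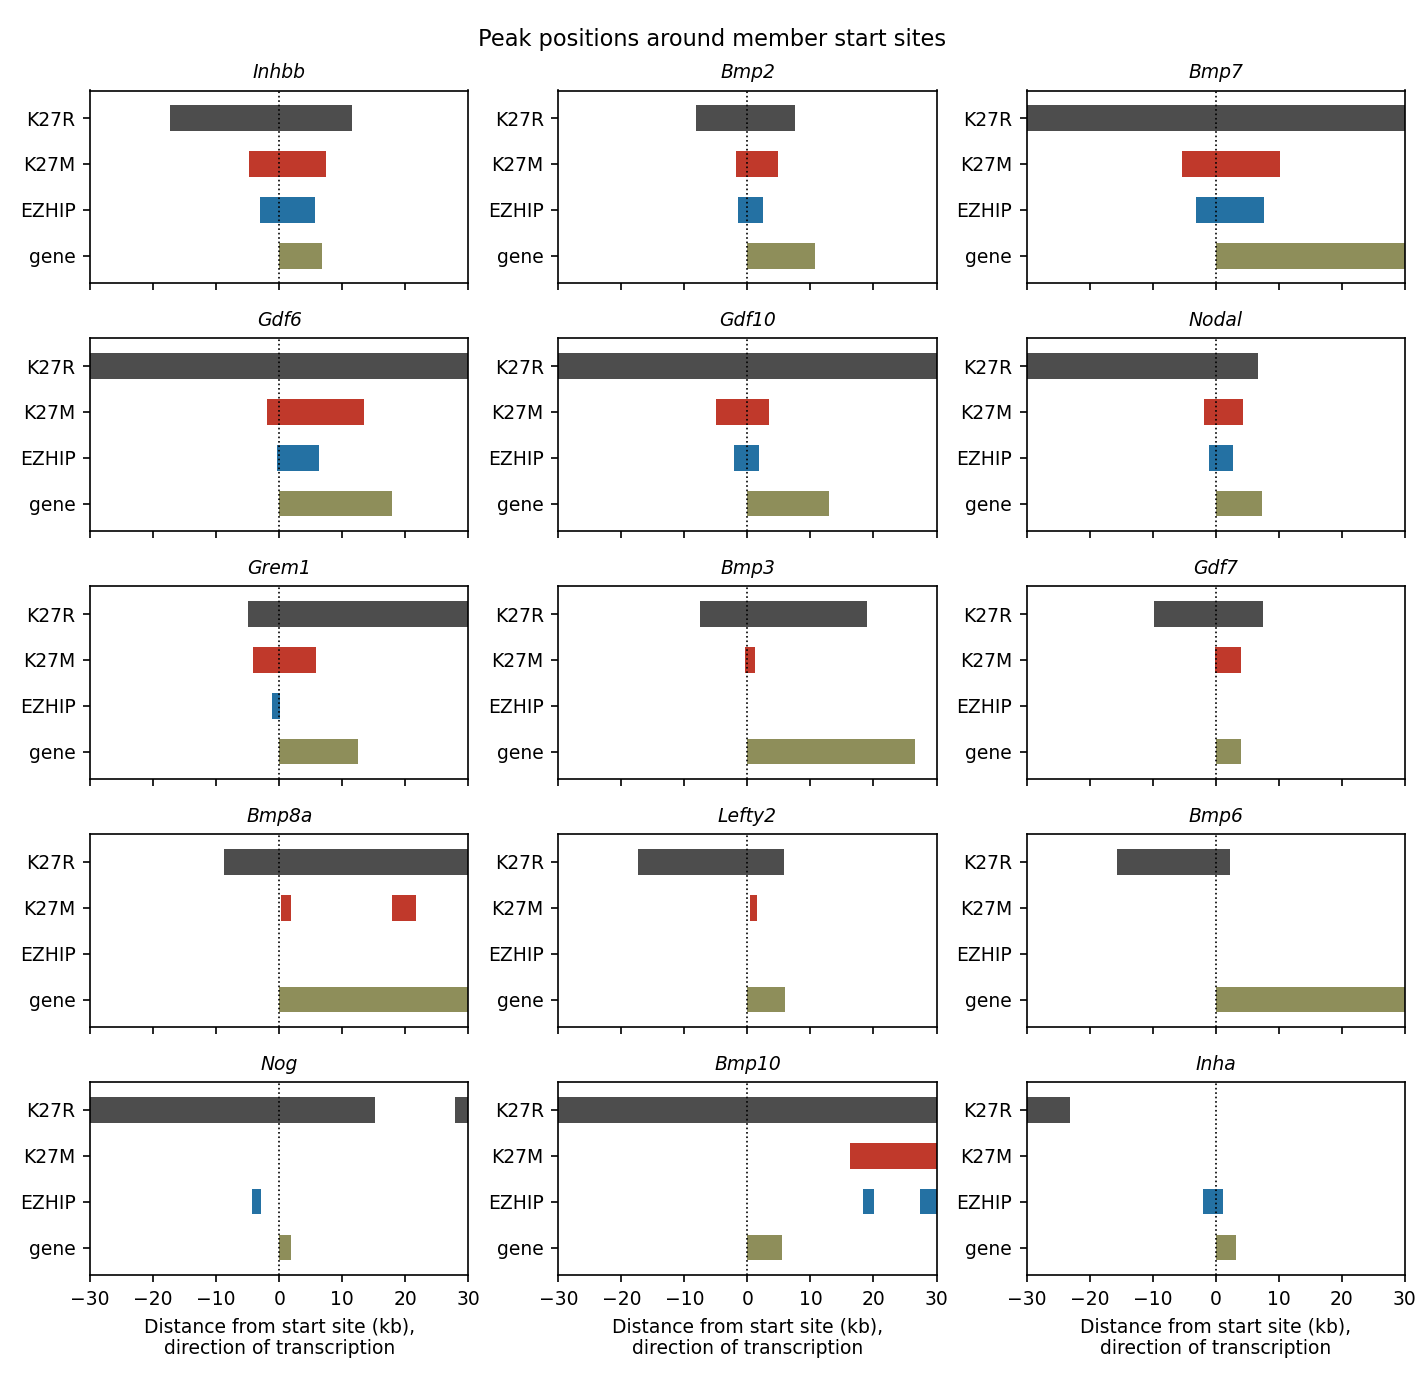
Positions of K27R (grey), K27M (red) and EZHIP (blue) peaks and of the gene (olive) within 30 kb of the start sites of 15 members, in kb along the direction of transcription, with bars cut off at the window's edge. In the first 7 panels the EZHIP bar lies inside the K27M bar and that bar inside the K27R bar, and in Bmp8a and Lefty2 the K27M bar begins 295 bp and 362 bp past the start site.

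The residual peaks were narrower in EZHIP than in K27M at each of the 7 members in both lists. Widths depend on how neighbouring regions were joined, and this differed between the lists as deposited. Gaps under 10 kb made up 28.4% of those between neighbouring EZHIP peaks, 12.4% of those between K27M peaks and 10.2% of those between K27R peaks. The smallest gap was 5.2 kb in K27M and 1.2 kb in EZHIP, while 23 pairs of K27R peaks touched. After merging of peaks up to 10 kb apart, a choice made after seeing the data for single widths, the K27M and EZHIP widths at these 7 start sites did not change, and the K27R widths of Bmp7 and Gdf6 grew to 342.2 kb and 181.2 kb. At these 7 start sites the median width was 50.8 kb in K27R (range 15.6 to 314.2), 10.0 kb in K27M (6.2 to 15.6) and 4.0 kb in EZHIP (1.4 to 10.8). The K27M peak was the wider in 7 of 7, against 78.7% of the 1476 genes in both lists, and the EZHIP peak lay wholly inside the K27M peak in 7 of 7, against 69.9%. The ratio of EZHIP to K27M width ran from 0.14 at Grem1 to 0.705 at Inhbb with a median of 0.588, where the median of all genes in both lists was 0.705. Counted over all marked start sites, K27M peaks had a median of 8.4 kb over 9 members and of 11.8 kb over all genes. EZHIP peaks had a median of 4.0 kb over 8 members and 8.4 kb over all genes. K27R peaks had a median of 64.4 kb over 21 members (interval from order statistics 26.4 to 200.4) and 96.8 kb over all genes. The interval of the members held the value of all genes in each list.

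**Figure D3:**
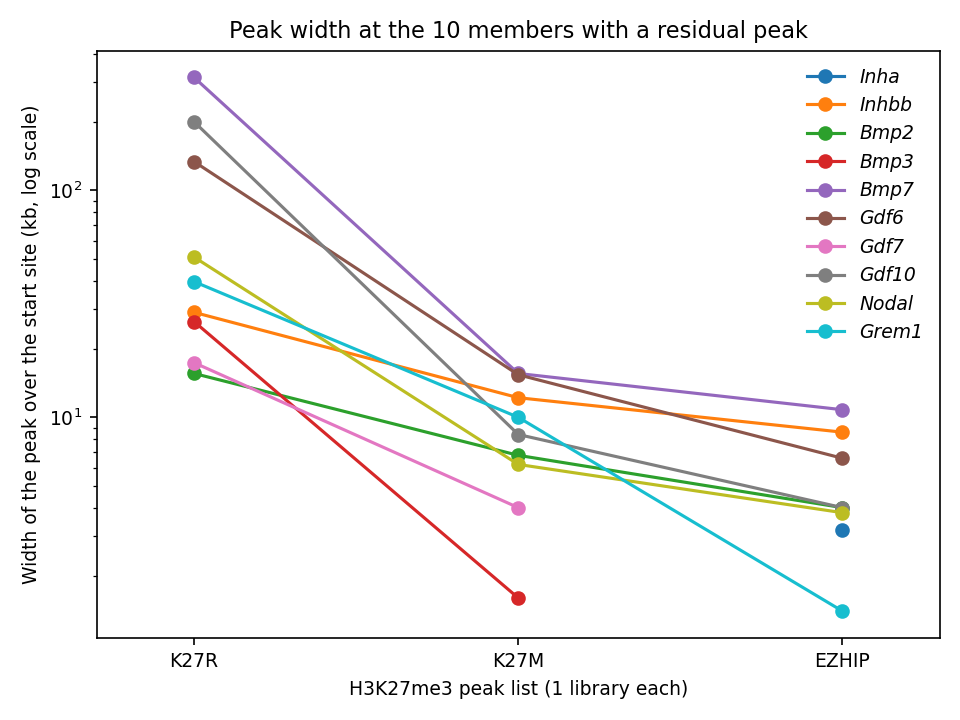
Width in kb (log scale) of the peak over the start site in the K27R, K27M and EZHIP lists for the 10 members with a residual peak, 1 line per gene. All 7 lines with 3 points fall from K27R to K27M and again to EZHIP, Grem1 ends lowest at 1.4 kb, and Inha is a single point of 3.2 kb.

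K27R widths overlapped between the states. The 12 members in K27R peaks alone had a median K27R width of 65.6 kb (6.8 to 281.2) and the 7 in all lists one of 50.8 kb (15.6 to 314.2). The 21 marked members lay in 19 distinct K27R regions. Of these regions 14 held a K27M peak somewhere, 12 an EZHIP peak, 11 both and 4 neither. The same count over all K27R regions with a start site was not made. These numbers therefore describe the members' regions and do not set them apart from others. The 4 were those of Bmp5, Bmp6, Gdf3 and Mstn, 3 of them without any CpG island in the region. The other 8 members in K27R peaks alone thus lay in regions that kept the mark elsewhere, 7 with a K27M peak and 7 with an EZHIP peak.

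Each of the 9 members with a K27M peak over the start site had a CpG island within 500 bp. Over all genes, 1556 of the 2015 with such a K27M peak had an island, so most such genes share this. Of the 21 members in K27R peaks, 13 had an island within 500 bp. The K27M list kept 9 of these 13 (69.2%, interval 38.6 to 90.9) and the EZHIP list 7 (53.8%, interval 25.1 to 80.8), with 4 in neither (30.8%, interval 9.09 to 61.4). Among all island genes marked in K27R the shares were 52.0%, 44.0% and 43.3%. None of the 8 members without an island kept a peak over the start in either list (0%, interval 0 to 36.9), against 12.2% in K27M and 10.9% in EZHIP for all such genes, of which 84.9% were in neither. Those 8 were Inhbc, Inhbe, Bmp5, Bmp10, Gdf2, Gdf3, Mstn and Lefty2. The members with an island that were in neither list were Bmp6, Bmp8a, Bmp8b and Nog. When a peak within 1000 bp of the start was counted, Bmp8a and Lefty2 joined those kept in K27M. This gave 10 of 13 with an island and 1 of 8 without (12.5%). The 12.2% above counts only starts inside a peak, so it is not the matching share. The K27M peak near the Lefty2 start itself overlapped a CpG island. Of the 14 unmarked members 8 had an island as well. The CG count of the 300 bp window had a median of 29 in the 7 members in all lists (range 5 to 42), 6 in those in K27R alone (3 to 33) and 9.5 in the unmarked ones (1 to 36). The same medians over all genes were 18, 5 and 13.

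**Figure D4:**
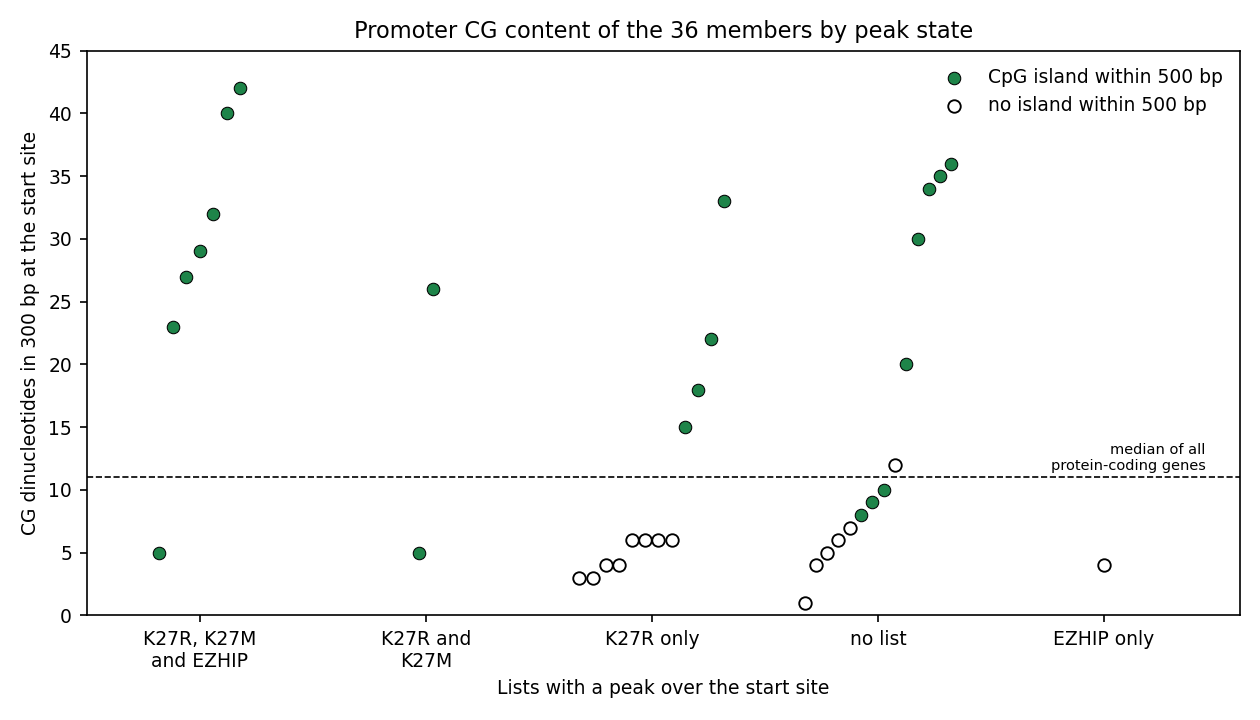
CG dinucleotides in the 300 bp window at the start site (y axis, count) of each of the 36 members, placed by the lists with a peak over the start, with green points for an island within 500 bp, open points for none and a dashed line at the median of 11 of all protein-coding genes. All 9 members that kept a K27M peak are green, while the K27R only column holds 8 open and 4 green points.

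Of the other genes of the pathway, 14 of 51 were marked in K27R cells (27.5%, interval 15.9 to 41.7), beside the 30.1% of all genes and the 59.4% of the ligands. That list of 51 genes gave 5 in K27M (9.80%), 5 in EZHIP (9.80%) and 3 in both (5.88%), near the 9.02%, 7.73% and 6.60% of all genes. Of 12 type I and type II receptors, 5 were marked in K27R, 1 in K27M and 2 in EZHIP, with 0 in both. Of 7 co-receptors 3, 1 and 1 were marked, and of 17 other antagonists and modulators 6, 3 and 2. None of the 8 Smads and none of 7 target genes was in a peak of any list. The 3 pathway genes in both lists were Sost, an antagonist known from bone, with widths of 89.6, 34.2 and 24.8 kb in K27R, K27M and EZHIP, Chrdl2, a chordin-like antagonist, with 37.4, 11.8 and 5.6 kb, and Cfc1, a Nodal co-receptor, with 339.2, 7.8 and 7.2 kb. At all 3 the order of widths was that seen at the members.

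**Figure D5:**
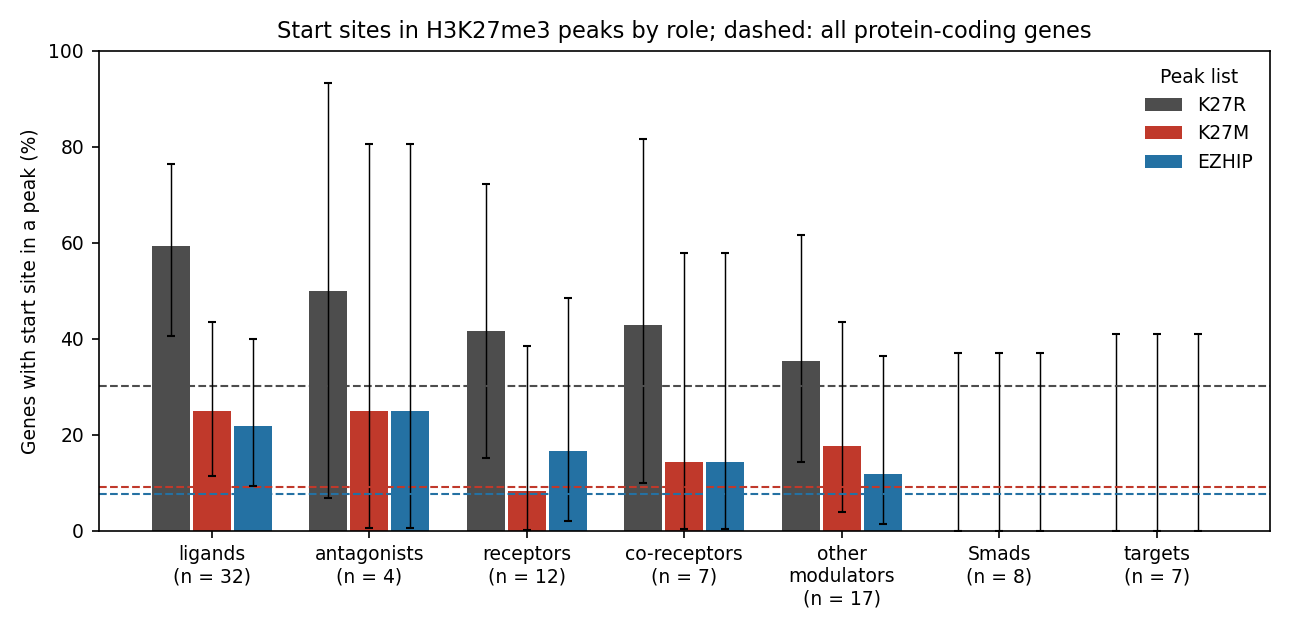
Percent of genes whose start site lay in a peak (y axis) for ligands, the 4 antagonists and 5 groups of other pathway genes in the K27R (grey), K27M (red) and EZHIP (blue) lists, with exact 95% intervals as bars and dashed lines for all protein-coding genes. Ligands stand at 59.4% in K27R above the dashed line at 30.1%, while Smads and targets are at 0 in every list with intervals that reach 36.9% and 41.0%.

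The label of the cells was checked against 12 fibroblast genes, such as Col1a1 and Prrx1. In each list 0 of their start sites lay in a peak (interval 0 to 26.5, against 30.1% of all genes in K27R). The shares of all genes in K27M and EZHIP, 9.02% and 7.73%, lay inside that interval. Of 12 genes that define epithelial, endothelial, blood or neural cells, 8 were in K27R peaks (66.7%, interval 34.9 to 90.1). Each inhibitor list held 5 of them (41.7%, interval 15.2 to 72.3). Krt8, Pecam1, Ptprc and Itgam were unmarked at the start like the fibroblast genes, so an unmarked start alone does not name the cell type. The likeness was not complete in the gene bodies. K27R peaks covered 18.5% of Ptprc and 31.9% of Itgam, while no peak touched a fibroblast gene body, nor those of Krt8 and Pecam1.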

How the data were processed

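H3K27me3 ChIP-Seq peak lists of 3 MEF lines were used, 1 library each, grouped by sample title. By the study's methods and processing notes, the authors crosslinked cells, digested chromatin with MNase, aligned reads with Bowtie 1.0.0 to mm9 and a reference genome of another species, and called broad peaks with MOSAiCS-HMM for each library. The methods name one group of caller settings for H3K27me3, with regions up to 10000 bp apart to be joined, yet each list holds smaller gaps, and the K27R list carries another kind of name than the other 2, so that its widths may come from other settings. Whether scaling by the second genome entered the calls is not given in the sources used here. The deposited lists hold starts and ends on 200 bp bins and no height, score or p-value, so a weak region can be absent from a list without lacking the mark. Positions were read as whole bins and printed counting from 1. A start site is the 5′ end of the GENCODE vM1 gene, and overlap needed 1 bp. CpG islands were segments over 200 bp from scores of 17 per CG and -1 per other base, a G+C share of 50% or more and a CpG ratio (observed over expected) above 0.6 (27075 islands, repeats not masked). Shares have exact Clopper-Pearson intervals and medians 95% order-statistic intervals. Python 3.11.15, numpy 2.4.6 and scipy 1.17.1 were used, and the interval tools and island finder were tested on simulated data.

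The members, the pathway and marker lists and the alternatives were chosen with earlier results of these data known. Each member was accounted for by its state. Promoters were shown for the 2 members in both inhibitor lists with the widest narrower residual peak and, by the rule, for the 2 in K27R peaks alone with the widest K27R peak, of which 1 is not reported here. Inha was added after its values were seen. Pathway genes were named where in both inhibitor lists. Alternatives changed the distance to the start, the depth inside the peak, the transcripts, the minimum width, merging and the background.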

Additional observations from a re-analysis of the deposited data

How the results depend on the processing

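The number of members marked in K27R was 21 under each of the 7 alternatives tried for it: a peak within 1000 bp or 5000 bp of the start, the start at least 1000 bp inside the peak, the start of any protein-coding transcript, minimum peak widths of 2000 bp and 5000 bp, and merging of peaks up to 10000 bp apart. For K27M the number ran from 7 to 11 around 9, with Bmp8a and Lefty2 gained within 1000 bp and Bmp3 and Gdf7 lost with a minimum width of 5000 bp. The EZHIP number depended most on width: it fell from 8 to 3 with a minimum width of 5000 bp, which left Inhbb, Bmp7 and Gdf6, and the number in both lists fell from 7 to 3, because the other peaks are narrower than that. The other alternatives gave 6 to 9 for EZHIP and 5 to 7 for both. No share of all genes is given under these alternatives, so the members were compared with all genes under the main rule only. Nog was gained in EZHIP within 5000 bp, and Gdf6 and Grem1 were lost with the start 1000 bp inside the peak. With autosomal genes alone, a choice made after seeing the data, 28.2% of all genes were in K27R peaks. With island genes as the background, the shares for K27M, EZHIP and both lay inside the members' intervals. Those intervals also count members without an island, so this does not compare like with like. Of the 21 members with an island, 9 were in K27M, 7 in EZHIP and 7 in both. The shares of island genes lay below the intervals of these counts. No paired analysis was possible because the result comes from no test and each group has 1 library. Without read counts, depth cannot be compared between the lists, and a fold or a replicate error cannot be given for any member.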
